A study of Mus musculus with 8 samples.

Results

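Passage 2 tumours exposed to RANK-Fc in that passage alone (3 tumours, called current RANK-Fc) were compared with passage 2 control tumours (2 tumours), which makes 5 of the 16 tumours in the series. The members were chosen by their treatment labels and not by any measured value. All 16 tumours were pieces of mammary tumours driven by the polyoma middle T oncogene under the mouse mammary tumour virus promoter (MMTV-PyMT), which directs the oncogene mainly to mammary epithelium, on the FVB strain, and they grew orthotopically in wild type FVB hosts. The current RANK-Fc hosts received RANK-Fc by intraperitoneal injection at 10 mg/kg 3 times a week. The labels do not say what the controls were injected with, how long treatment lasted, how old the mice were, or from which passage 1 tumour each passage 2 tumour was grown, so the tumours of a group may descend from the same donor tumour. That the current RANK-Fc group was untreated in passage 1 is a reading of its code, in which control stands before Fc. Each tumour came from its own animal and filled 1 colour of a 2-colour array; the 2 colours of an array came from different groups, and a single array held a current RANK-Fc tumour (replicate 2) together with a control tumour (replicate 2). A pair of further comparisons with their own tumours are used for reference. The first is passage 1 RANK-Fc (3 tumours) against passage 1 control (2). The other is passage 2 tumours given RANK-Fc in both passages (3) against passage 2 tumours given it in passage 1 alone (3, called earlier RANK-Fc). The same RANK-Fc dose and schedule are recorded for these groups. The labels call current and passage 1 RANK-Fc adjuvant, earlier RANK-Fc neoadjuvant, and RANK-Fc in both passages neoadjuvant and adjuvant.

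RANK is a receptor of the tumour necrosis factor receptor family found on mammary epithelial cells. Its ligand, RANKL, is made in the normal gland by hormone-sensing luminal cells under progesterone and acts on neighbouring cells through TRAF adaptors and NF-kB. RANK-Fc joins the ligand-binding part of RANK to an antibody Fc part and captures RANKL as a decoy. In the mouse gland RANK signalling is needed for alveolar growth in pregnancy, and excess RANK signalling is known to impair milk secretion.

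Epithelial identity was checked first. The 9 epithelial markers examined (Epcam, Cdh1, Krt8, Krt18, Krt19, Cldn3, Cldn7, Elf5 and Kit) were well above background in all 5 tumours. Krt18, a luminal keratin, had log2 intensities of 16.09, 15.88 and 15.55 in current RANK-Fc tumours and 16.08 and 15.63 in control tumours. Esr1, the oestrogen receptor of hormone-sensing luminal cells, lay at 6.79, 6.71 and 7.40 in current RANK-Fc tumours, against 6.68 and 6.56 in control tumours. Because RANK-Fc is an injected protein, no RNA in these tumours checks that treatment reached them.

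No gene passed the limma test at an adjusted p under 0.05 in either direction (0% of 14131 genes). At an unadjusted p under 0.05 there were 373 genes higher (2.64% of those tested) and 191 lower (1.35%). The 3 current RANK-Fc tumours all lay above both controls for 1070 genes (7.58%) and all below for 794 genes (5.62%). After adjustment of the levels for dye these shares were 9.25% and 7.68%. The difference was above 0 in 55.3% of genes. Separation is easier with fewer tumours: with 1 tumour left out, 11.1% to 23.3% of all genes separated above and 8.14% to 20.7% below. Each difference below is therefore given as a value with its standard error (SE), and none as a passed test. The adjusted p was 0.9999 or above for every gene named here unless another is given. A tumour stood apart in each group. Current RANK-Fc replicate 3 had the highest mean of the 5 tumours in 19 of 36 gene lists, and control replicate 2 had the lowest in 18 and the highest in 0. The values are those of whole tumour pieces, in which fewer cells of a type and less RNA per cell cannot be told apart.

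The RANK system itself was close between the groups. Tnfrsf11a, the gene of RANK, had 12.31, 12.40 and 13.01 in current RANK-Fc tumours and 12.60 and 12.59 in control tumours, a log2 difference of -0.04 ± 0.20 (SE). Replicates 1 and 2 of the current RANK-Fc group lay below both controls and replicate 3 above them. Tnfrsf11b, which encodes osteoprotegerin, the natural decoy receptor for RANKL, had 7.16, 7.56 and 8.37 in current RANK-Fc tumours, against 7.85 and 7.04 in control tumours, and the groups overlapped. Tnfsf11, the gene of RANKL, was too dim to be tested. Of 19 tested genes of RANK signalling, 15 had a positive difference, with a median of 0.16 against 0.02 over all genes. Without control replicate 2 the median was -0.02, with 8 genes higher and 11 lower, and without current RANK-Fc replicate 2 it was 0.09. The adaptor Traf3, a brake on the non-canonical NF-kB branch, had 11.04, 11.16 and 11.36 in current RANK-Fc tumours and 10.94 in each control tumour (0.25 ± 0.13). Traf6, the adaptor that links RANK to the canonical branch, was lower by a log2 difference of -0.24 ± 0.11, with overlap between the groups. Of 29 tested NF-kB target genes, 26 had a positive difference (median 0.32). The current RANK-Fc tumours all lay above both controls in 4 of them (13.8%, against 7.58% of all genes) and all below in 1 (3.45%, against 5.62%). After adjustment of the levels for dye, 8 of the 29 lay above (against 9.25% of all genes) and 1 below (against 7.68%). The median was 0.20 without control replicate 2 and 0.21 without current RANK-Fc replicate 2. In the passage 1 comparison 8 of the 29 were higher and 21 lower (median -0.07), against 45.9% of all genes higher. In the comparison after earlier treatment 9 were higher and 20 lower (median -0.10), against 51% of all genes higher. The direction was thus not shared. The inflammatory cytokine gene Il1b was among the 4 that lay above without dye adjustment. It had 7.81, 8.41 and 8.21 in current RANK-Fc tumours, against 7.33 and 7.44 in control tumours (0.82 ± 0.27).

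Genes of cholesterol synthesis held the most separated genes of any list, although the share was larger among matrix proteases (8 of 15). Cells raise these genes together when sterols in the endoplasmic reticulum run low: the escort protein Scap then carries the transcription factor SREBP-2, product of Srebf2, to be cleaved, and Insig proteins hold the pair back. Of 34 tested genes of synthesis, its regulation and export, 31 had a positive difference, with a median of 0.34. The 3 current RANK-Fc tumours all lay above both controls in 16 of the 34 (against 7.58% of all genes), and all below both in 0. Among the roles within the list, 13 of 23 enzymes and 3 of 6 genes of regulation separated in this way, and 0 of 5 export genes did. List means per tumour were 10.30, 10.15 and 10.33 in current RANK-Fc tumours, against 9.97 and 9.91 in control tumours.

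Cyb5b, a cytochrome b5 of the outer mitochondrial membrane that was placed on the list as an electron donor, had 10.57, 10.66 and 10.81 in current RANK-Fc tumours and 9.98 in each control tumour (0.71 ± 0.13, 1.64-fold, adjusted p = 0.445). Its controls differed by far less than its distance from the treated tumours, and its other probe gave a difference of 0.43. Msmo1, a sterol methyl oxidase, had 11.10, 10.34 and 10.86 in current RANK-Fc tumours, against 10.14 and 9.88 in control tumours (0.72 ± 0.22). Sqle, squalene epoxidase, which makes the first oxygenated intermediate, had 12.19, 11.70 and 12.11 in current RANK-Fc tumours, against 11.37 and 11.36 in control tumours (0.60 ± 0.18). Cyp51, the lanosterol demethylase, had 8.10, 7.79 and 7.95 in current RANK-Fc tumours and 7.44 in each control tumour (0.49 ± 0.12, 1.41-fold). In each of these 4 genes the lowest current RANK-Fc tumour was replicate 1 or replicate 2 and still lay above both controls.

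Further enzymes that separated lay along the pathway: Mvk, Mvd, Fdps, Fdft1, Lss, Tm7sf2, Nsdhl and Hsd17b7 differed by 0.30 (Nsdhl and Hsd17b7) to 0.50 (Fdps). Insig1, which retains Scap in the endoplasmic reticulum and is itself a target of SREBP-2, had 8.12, 8.06 and 8.17 in current RANK-Fc tumours, against 7.70 and 7.69 in control tumours (0.43 ± 0.18). Hmgcs1, an early synthase of the pathway, overlapped, with replicate 2 of the current RANK-Fc group at 11.36 between the controls' 11.38 and 11.33 (0.38 ± 0.21). Srebf2, Scap and Insig2 had differences between -0.09 and 0.14, and the cholesterol exporters Abca1 and Abcg1, targets of the oxysterol receptors, had differences of 0.00 ± 0.24 and 0.02 ± 0.32. Abcg1 was lowest of the 5 tumours in replicate 1 of the current RANK-Fc group, the tumour in which Fdps was highest.

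**Figure D1:**
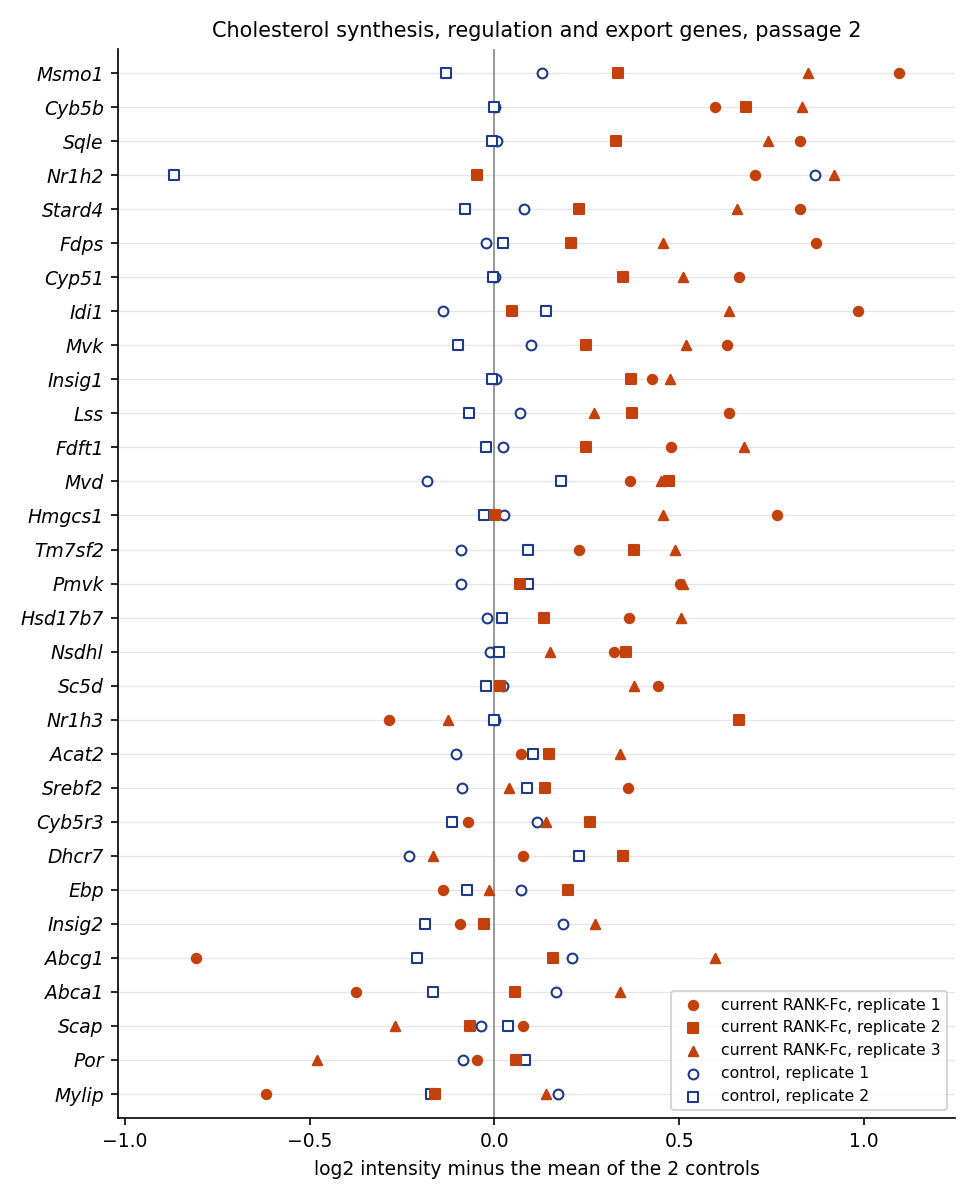
Log2 intensity of 31 genes of cholesterol synthesis, its regulation and export in each passage 2 tumour, minus the mean of the 2 control tumours (x axis), with genes down the page by their difference; filled orange symbols are the 3 current RANK-Fc tumours and open blue symbols the 2 control tumours. In 14 genes all 3 orange symbols lie right of both blue ones, and in the exporters near the foot, such as Abca1 and Abcg1, the symbols intermingle.

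Of the 34 genes, 25 matched a promoter in RefSeq's table for GRCm38.p6, which holds 250 bases before to 50 bases after each annotated start. The CCAAT box is a motif bound by NF-Y, which is known to act with SREBPs. Searched as CCAAT on both strands, it was found in 1 or more promoters of 19 of the 25 genes (76%). Counted in the same way, the share was 41.1% of the 27025 genes in the table. A sterol element bound by SREBPs, searched as TCACNCCAC on both strands, was found for 1 of the 25 genes (against 1.44% of all genes). This gene was Hmgcs1, with TCACCCCAC beginning 137 bases before the start. A match of letters describes the sequence only. Promoters of 3 genes that separated the groups are shown with that of Hmgcs1, 5′ to 3′ on the strand of the gene, with capitals marking CCAAT on either strand and, in Hmgcs1, also the sterol element:
Cyb5b, chr8:107150411-107150710, plus strand: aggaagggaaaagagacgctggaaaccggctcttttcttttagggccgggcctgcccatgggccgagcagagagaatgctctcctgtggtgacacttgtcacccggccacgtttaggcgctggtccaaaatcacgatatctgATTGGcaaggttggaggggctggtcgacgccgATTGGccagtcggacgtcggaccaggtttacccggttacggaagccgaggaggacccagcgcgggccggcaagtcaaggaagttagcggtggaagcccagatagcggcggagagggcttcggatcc
Cyp51, chr5:4104648-4104947, minus strand: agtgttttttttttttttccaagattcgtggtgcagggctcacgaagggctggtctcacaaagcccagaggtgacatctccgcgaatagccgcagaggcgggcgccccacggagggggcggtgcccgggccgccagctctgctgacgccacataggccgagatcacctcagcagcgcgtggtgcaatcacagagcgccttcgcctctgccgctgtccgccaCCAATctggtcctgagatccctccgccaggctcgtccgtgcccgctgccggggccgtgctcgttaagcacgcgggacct
Msmo1, chr8:64733529-64733828, minus strand: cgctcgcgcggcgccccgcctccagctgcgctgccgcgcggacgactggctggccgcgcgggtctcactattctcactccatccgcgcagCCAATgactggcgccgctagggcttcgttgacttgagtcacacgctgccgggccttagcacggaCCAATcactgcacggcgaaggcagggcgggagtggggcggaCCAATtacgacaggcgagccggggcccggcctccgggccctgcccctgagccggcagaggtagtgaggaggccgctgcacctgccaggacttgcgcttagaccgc
Hmgcs1, chr13:119690101-119690400, plus strand: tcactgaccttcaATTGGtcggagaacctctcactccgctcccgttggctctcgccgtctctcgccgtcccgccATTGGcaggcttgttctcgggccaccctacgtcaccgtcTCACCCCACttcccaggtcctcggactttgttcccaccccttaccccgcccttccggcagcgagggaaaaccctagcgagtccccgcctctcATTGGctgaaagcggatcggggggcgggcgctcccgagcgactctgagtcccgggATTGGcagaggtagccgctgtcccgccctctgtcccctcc
The 3 CCAAT copies of Msmo1 lie on the gene's own strand and the 2 of Cyb5b on the opposite one, where they read as ATTGG.

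Milk protein genes had the largest differences of the comparison: those of Csn1s2a, Glycam1, Csn2 and Csn1s1 exceeded those of all other genes in either direction. Caseins are the main proteins of milk, and in the gland their transcription is driven by prolactin through STAT5 together with the epithelial factor Elf5. All 5 tested casein genes had a positive difference (median 2.26), and in 4 of the 5 the current RANK-Fc tumours all lay above both controls. Csn1s2a had 13.62, 14.25 and 16.89 in current RANK-Fc tumours, against 10.75 and 11.78 in control tumours, a difference of 3.68 ± 1.19 (12.8-fold). Csn2, beta-casein, had 15.09, 16.24 and 17.98 in current RANK-Fc tumours, against 13.28 and 13.79 in control tumours (3.01 ± 1.37, 8.06-fold). Csn1s1 had 14.45, 15.64 and 17.04 in current RANK-Fc tumours, against 13.30 and 13.70 in control tumours (2.26 ± 0.90, 4.80-fold). In these 3 genes the groups did not overlap, replicate 3 was the highest of the current RANK-Fc tumours, and the distance between replicates 1 and 3 of that group was as large as or larger than that between replicate 1 and the controls. Csn1s2b lay at 8.91, 8.93 and 12.82 in current RANK-Fc tumours, against 7.83 and 8.68 in control tumours (1.74 ± 0.86, its other probe 1.26), so that its difference came mostly from replicate 3. Csn3, kappa-casein, overlapped, at 10.52, 10.59 and 11.17 in current RANK-Fc tumours and 10.58 and 10.31 in control tumours (0.30 ± 0.26).

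These casein genes lie in a cluster on chromosome 5. STAT5 binds sites of the form TTCNNNGAA. Searched with these letters, which read the same on both strands, the promoter table held the motif for 6 of 25 matched milk protein genes (24%), against 9.55% of all genes. Csn1s2b and Csn3 matched no promoter in the table, so the motif cannot be set against the size of the difference among the caseins. It was present in the promoters of the 3 casein genes that could be searched, shown 5′ to 3′ on the gene's strand with the motif in capitals:
Csn1s2a, chr5:87774200-87774499, plus strand: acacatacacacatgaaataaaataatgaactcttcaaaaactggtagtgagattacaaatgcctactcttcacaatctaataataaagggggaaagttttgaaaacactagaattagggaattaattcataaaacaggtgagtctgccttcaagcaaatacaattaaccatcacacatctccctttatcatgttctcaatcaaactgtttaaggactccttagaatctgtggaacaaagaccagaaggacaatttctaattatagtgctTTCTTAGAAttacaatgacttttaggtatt
Csn2, chr5:87699376-87699675, minus strand: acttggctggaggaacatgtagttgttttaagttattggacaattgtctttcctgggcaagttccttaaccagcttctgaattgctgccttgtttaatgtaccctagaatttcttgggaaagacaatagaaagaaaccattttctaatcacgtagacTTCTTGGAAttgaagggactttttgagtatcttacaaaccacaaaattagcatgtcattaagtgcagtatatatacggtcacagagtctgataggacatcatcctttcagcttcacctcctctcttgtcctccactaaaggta
Csn1s1, chr5:87665958-87666257, plus strand: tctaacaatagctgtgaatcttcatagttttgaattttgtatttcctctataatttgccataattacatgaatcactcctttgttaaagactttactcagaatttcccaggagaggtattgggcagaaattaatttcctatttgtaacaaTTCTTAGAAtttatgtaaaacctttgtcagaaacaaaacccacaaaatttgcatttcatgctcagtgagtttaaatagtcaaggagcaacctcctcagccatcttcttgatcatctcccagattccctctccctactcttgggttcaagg
The motif began 93 bases before the start in Csn2, 100 bases before it in Csn1s1 and 20 bases after it in Csn1s2a, and it was TTCTTAGAA in both Csn1s2a and Csn1s1.

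Milk proteins outside the caseins had smaller differences, with the exception of Glycam1. Of the 34 tested genes of the milk protein list, 32 had a positive difference (median 0.30) and 8 separated with current RANK-Fc above (23.5%, against 7.58% of all genes), with 0 below. Glycam1, a mucin-like whey protein, had 10.23, 7.49 and 14.59 in current RANK-Fc tumours, against 7.30 and 6.93 in control tumours (3.02 ± 1.37). Replicate 2 stood barely above the controls there. Abcg2, a transporter that carries riboflavin into milk, had 11.56, 11.51 and 12.42 in current RANK-Fc tumours, against 10.97 and 11.02 in control tumours (0.80 ± 0.23, 1.74-fold). The water channel gene Aqp5 separated at 0.45 ± 0.19. Wap, whey acidic protein, overlapped at 15.43, 16.49 and 16.30 in current RANK-Fc tumours and 15.91 and 15.92 in control tumours (0.27 ± 0.51). Lalba, the lactose synthase subunit, was lowest in a control tumour and did not separate either (0.51 ± 0.51). Fat globule proteins were closest to the controls, with 0 of 8 separated and a median difference of 0.18.

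Of 14 tested genes of the prolactin-STAT5 axis, 9 had a positive difference (64.3%, against 55.3% of all genes, median 0.13). In 4 the groups separated above (28.6%, against 7.58% of all genes), all among its 7 target genes, and in 0 below. The list median was 0.025 without control replicate 2. Of its 5 transcription factors, 4 were lower (median -0.03). Upstream of the caseins, Elf5 (0.13 ± 0.19) and Stat5a (-0.12 ± 0.26) had differences smaller than their SE. Feedback genes were among those that separated. Cish had 10.20, 10.62 and 10.23 in current RANK-Fc tumours, against 9.96 and 10.04 in control tumours (0.39 ± 0.15). Socs2 had 8.77, 9.22 and 8.97 in current RANK-Fc tumours, against 8.41 and 8.47 in control tumours (0.50 ± 0.30). Socs3 separated at 0.28 ± 0.15. All 3 encode inhibitors of JAK and STAT signalling that STAT factors induce.

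**Figure D2:**
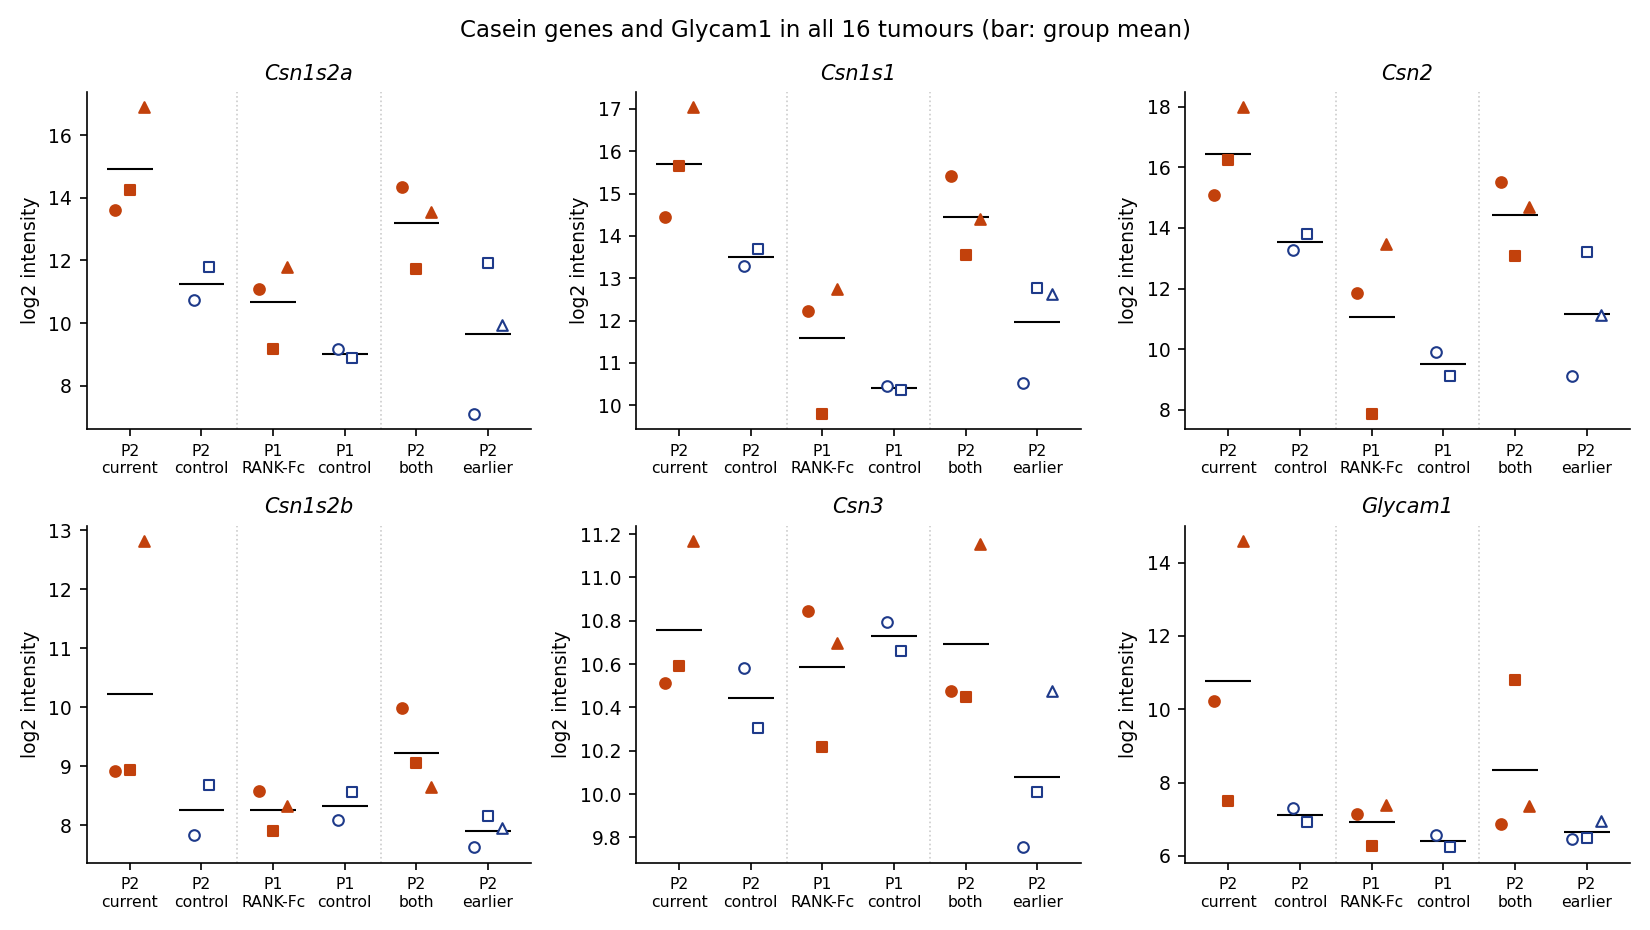
Log2 intensity (y axis) of 5 casein genes and Glycam1 in all 16 tumours, by group, with filled orange symbols for tumours under current RANK-Fc, open blue symbols for their counterparts and a bar at each group mean; P1 and P2 are the passages, both is RANK-Fc in both passages and earlier is RANK-Fc in passage 1 alone. For Csn1s2a, Csn1s1 and Csn2 the 3 current RANK-Fc tumours of passage 2 lie above both controls, and replicate 3 is the highest of all 16 tumours.

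The comparisons with other tumours gave positive differences for Csn1s2a, Csn1s1 and Csn2. Neither called a gene at an adjusted p under 0.05 (limma); at an unadjusted p under 0.05, 0.729% of genes were higher and 0.913% lower in passage 1, and 4.63% and 5.37% after earlier treatment. In passage 1, Csn2 had 11.84, 7.86 and 13.46 in RANK-Fc tumours, against 9.91 and 9.12 in control tumours (2.04 ± 1.37). Replicates 1 and 3 of the RANK-Fc group lay above both controls and replicate 2 lay below them. In passage 2 tumours with earlier treatment, Csn2 had 15.50, 13.07 and 14.69 with RANK-Fc in both passages, against 9.13, 13.22 and 11.13 with earlier RANK-Fc alone (2.94 ± 1.23), and the groups overlapped by a single pair of tumours. Of the 34 milk protein genes, 24 were higher in the passage 1 comparison (median 0.25), against 45.9% of all genes, and 28 in the comparison after earlier treatment (median 0.41), against 51% of all genes. For cholesterol synthesis the counts were 26 and 23 of 34, with medians of 0.14 and 0.21. Cyp51 separated in both, as 7.62% of all genes did on the higher side in passage 1 and 4.36% after earlier treatment (9.34% and 5.3% on the lower side), with differences of 0.17 ± 0.12 in passage 1 and 0.54 ± 0.10 after earlier treatment. Sqle was higher by 0.45 ± 0.18 in passage 1 and differed by -0.03 ± 0.16 after earlier treatment. The test of the difference between the passage 2 effect and either of the others called 0 genes at an adjusted p under 0.05, with 1.4% of genes higher and 0.396% lower at an unadjusted p under 0.05 against passage 1, and 4.54% higher and 2.27% lower against the effect after earlier treatment. The differences of effect were above 0 in 55.5% and 51.9% of genes. Some of these tumours shared arrays with the current RANK-Fc tumours, which the fit took into account.

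**Figure D3:**
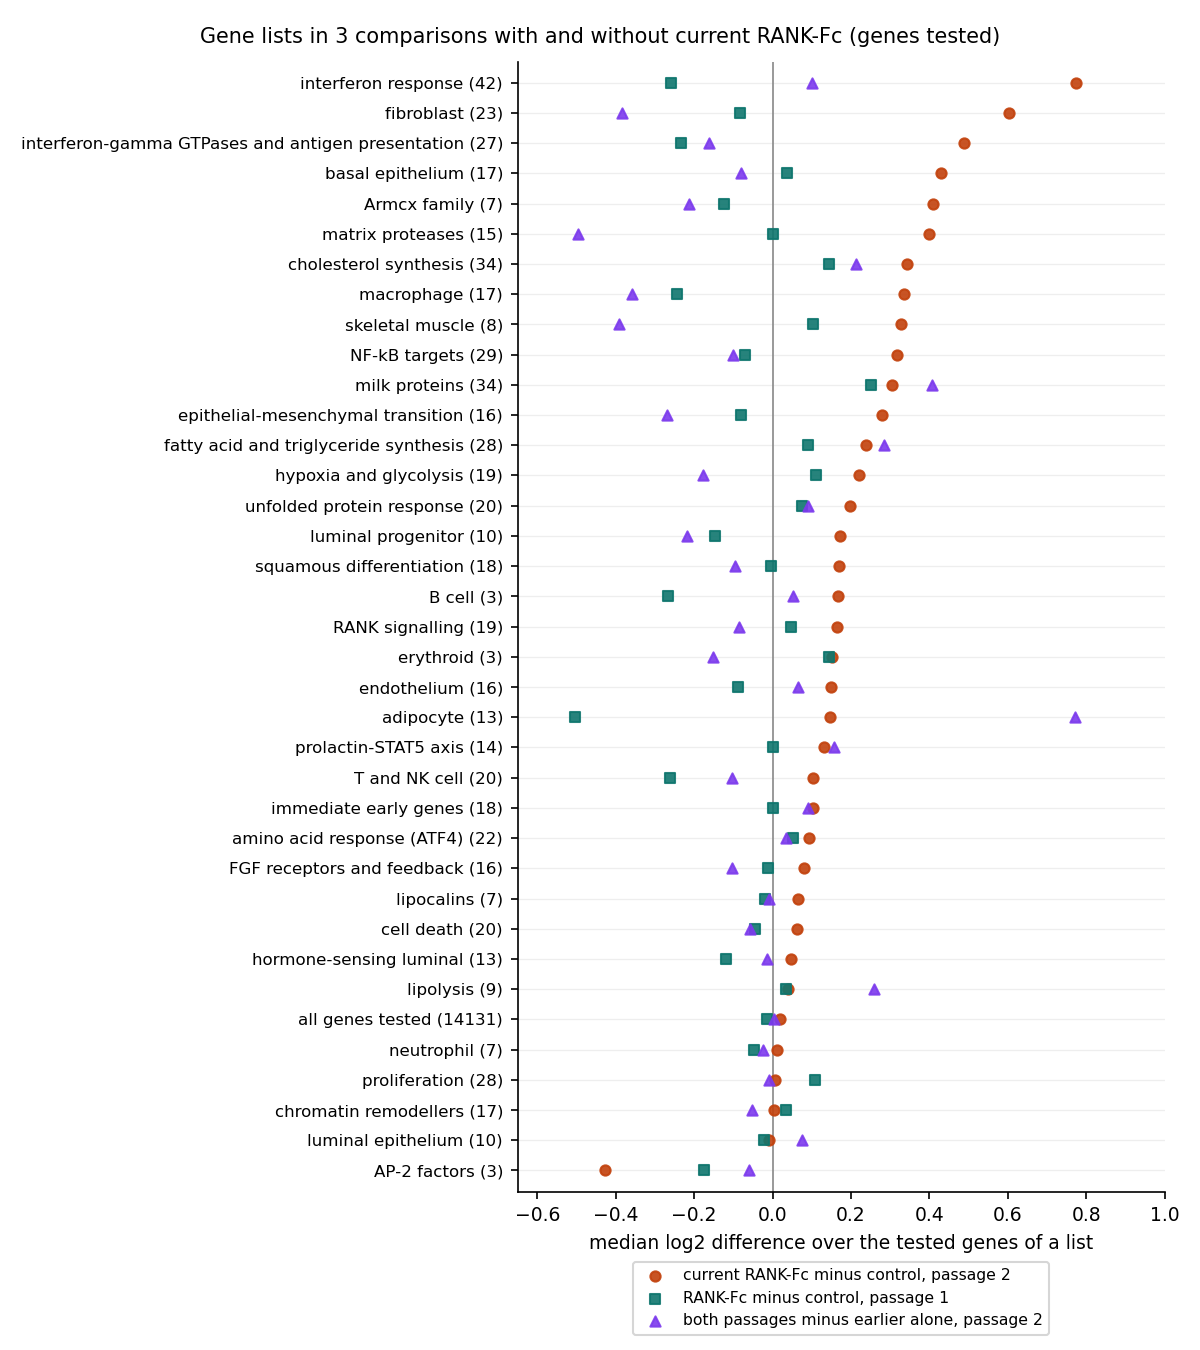
Median log2 difference (x axis) over the tested genes of each of 36 lists and over all genes, for current RANK-Fc minus control in passage 2 (circles), RANK-Fc minus control in passage 1 (squares) and both passages minus earlier RANK-Fc alone in passage 2 (triangles). Milk proteins, cholesterol synthesis, fatty acid synthesis and the unfolded protein response lie right of 0 in all 3 comparisons. So do the prolactin-STAT5 axis (0.131, 0.001 and 0.156), lipolysis (0.04, 0.034 and 0.258) and the amino acid response (0.094, 0.053 and 0.035), in the order of the symbols. The circle of the fibroblast list at 0.60 has both other symbols left of 0.

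Fatty acid synthesis followed in part. This pathway supplies milk fat and is governed by SREBP-1. Of 28 tested genes, 22 had a positive difference (median 0.24), and 7 separated above the controls (25%, against 7.58% of all genes), with 0 below. After adjustment of the levels for dye, 10 lay above (against 9.25% of all genes) and 1 below (against 7.68%). Fads1, a desaturase that forms polyunsaturated fatty acids, had 10.10, 9.83 and 11.19 in current RANK-Fc tumours, against 9.40 and 9.20 in control tumours (1.00 ± 0.27, 2.00-fold). Acaca, acetyl-CoA carboxylase, which commits carbon to fatty acids, had 12.24, 12.68 and 13.15 in current RANK-Fc tumours, against 12.11 and 12.08 in control tumours (0.60 ± 0.22). Neither gene's groups overlapped, and replicate 3 was the highest in both. Fabp3, a fatty acid binding protein, had 7.99, 9.80 and 11.61 in current RANK-Fc tumours, against 8.29 and 7.87 in control tumours (1.71 ± 0.74), and Olah, the thioesterase that releases the medium-chain fatty acids of milk, had 9.41, 10.87 and 13.17 in current RANK-Fc tumours, against 9.70 and 9.19 in control tumours (1.70 ± 0.85). In both of these replicate 1 lay within the range of the controls. Fasn, fatty acid synthase, differed by 0.11 ± 0.27, Scd1 by 0.23 ± 0.59 and Srebf1 by -0.23 ± 0.27. The median of the list was 0.10 without replicate 3 of the current RANK-Fc group.

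Chaperones of the endoplasmic reticulum, which fold secreted proteins, lay slightly higher. Of 20 tested genes of the unfolded protein response, 17 had a positive difference (median 0.20) and 7 separated (35%, against 7.58% of all genes), with 0 below. The median was 0.09 without control replicate 2. Hspa5, the chaperone BiP, had 15.05, 15.25 and 15.54 in current RANK-Fc tumours, against 14.99 and 14.69 in control tumours (0.48 ± 0.16). Hyou1 differed by 0.43 ± 0.14 and Creld2 by 0.38 ± 0.14, and both separated. The sensors Atf6, Ern1 and Eif2ak3 differed by 0.01, -0.04 and 0.10, and Xbp1, the factor whose RNA is spliced by Ern1's product, by 0.00 ± 0.17. Under median centring 3 of the 20 separated in place of 7.

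The interferon response list had the largest median of the 36 lists and no gene that separated the groups. Interferons induce a wide set of antiviral genes. All 42 tested genes had a positive difference (median 0.77), but in 0 of them did the current RANK-Fc tumours all lie above both controls. After adjustment of the levels for dye, 1 of the 42 did (against 9.25% of all genes). In the passage 1 comparison 0 of the 42 were higher and 42 lower (median -0.26), against 45.9% of all genes higher. In the comparison after earlier treatment 25 were higher and 17 lower (median 0.10), against 51% of all genes higher. Isg15, a ubiquitin-like antiviral protein, had 12.88, 13.95 and 13.79 in current RANK-Fc tumours, against 13.32 and 11.45 in control tumours (1.45 ± 0.61). Usp18, the protease that removes it, had 9.47, 10.62 and 10.23 in current RANK-Fc tumours, against 9.70 and 8.06 in control tumours (1.54 ± 0.63), and Irf7 had 9.34, 11.50 and 10.77 in current RANK-Fc tumours, against 10.61 and 8.42 in control tumours (1.43 ± 0.63). In each of the 3, control replicate 1 exceeded current RANK-Fc replicate 1, and control replicate 2 was the lowest of the 5 tumours. The same order held in 41 of the 42 genes for the first statement and in 35 of 42 for the second. Without control replicate 2 the median was 0.19, and without current RANK-Fc replicate 2 it was 0.43. It was 1.15 without control replicate 1, 1.10 without current RANK-Fc replicate 1 and 0.63 without current RANK-Fc replicate 3.

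Of 27 tested genes of interferon-gamma response and antigen presentation, all had a positive difference (median 0.49) and 0 separated. The median was -0.04 without current RANK-Fc replicate 2 and 0.96 without replicate 1 of that group. In the passage 1 comparison 8 of the 27 were higher (median -0.23), and after earlier treatment 7 were (median -0.16). The T cell receptor component gene Cd3g had 7.59, 9.30 and 8.47 in current RANK-Fc tumours and 8.96 and 8.30 in control tumours. Gzmb, a cytotoxic protease gene, had 6.82, 8.61 and 7.58 in current RANK-Fc tumours, against 7.21 and 6.92 in control tumours (0.79 ± 0.36). Ifng, the gene of interferon-gamma itself, had 6.59, 9.18 and 7.08 in current RANK-Fc tumours and 8.11 and 7.20 in control tumours (0.33 ± 0.52). Over the 20 tested T and NK cell genes the tumour means were 7.58, 8.97 and 8.06 in current RANK-Fc tumours, against 8.52 and 7.91 in control tumours, and the interferon list had 10.15, 11.40 and 10.87 in current RANK-Fc tumours, against 10.91 and 9.63 in control tumours. Current RANK-Fc replicate 2 was highest in both, while the lowest was current RANK-Fc replicate 1 for T and NK cells and control replicate 2 for interferon response. Without current RANK-Fc replicate 2 the T and NK cell median was -0.18, against 0.10 with it. In the passage 1 comparison 0 of the 20 T and NK cell genes were higher (median -0.26). After earlier treatment 4 were higher and 16 lower (median -0.10). The part of lymphocyte content in the interferon values was not tested. Macrophage genes (17 tested, all with a positive difference, median 0.34) separated in 0 cases. Their median was 0.09 without current RANK-Fc replicate 3, 0.16 without replicate 2 and 0.70 without replicate 1. The list had tumour means of 10.64, 11.75 and 11.83 in current RANK-Fc tumours, against 11.40 and 10.94 in control tumours. In the passage 1 comparison 1 of the 17 macrophage genes was higher and 16 lower (median -0.24). After earlier treatment 0 were higher and 17 lower (median -0.36), so the direction was not shared.

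**Figure D4:**
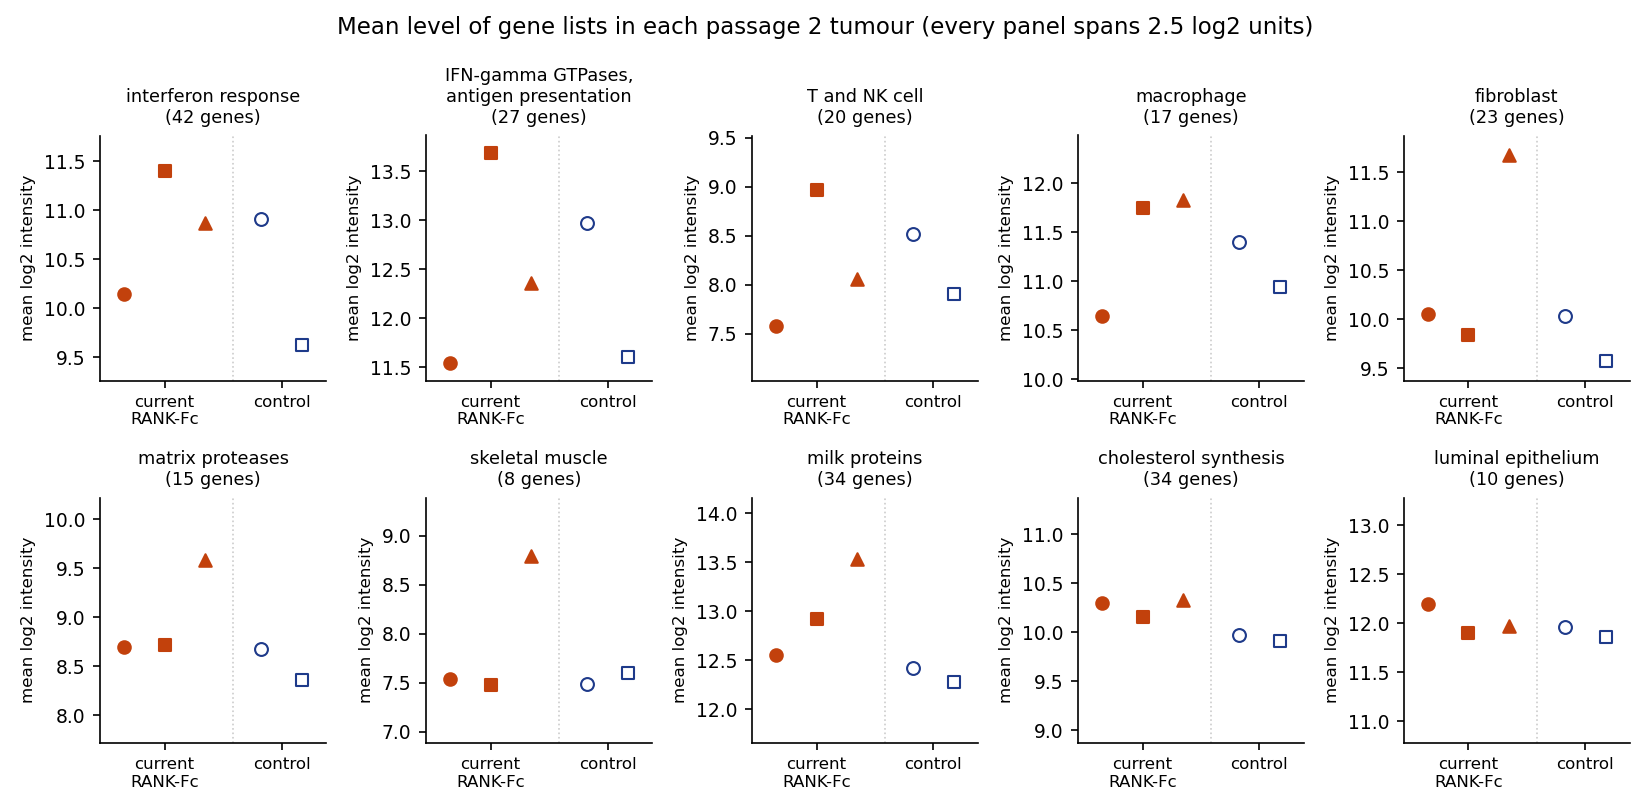
Mean log2 intensity (y axis) of 10 gene lists in each passage 2 tumour, with filled orange symbols for current RANK-Fc replicates 1 to 3 and open blue symbols for control replicates 1 and 2; every panel spans the same range. Cholesterol synthesis, milk proteins and matrix proteases have all 3 orange symbols above both blue ones, matrix proteases narrowly (lowest 8.70, against a higher control of 8.68). The lymphocyte and interferon panels have replicate 2 highest, and the fibroblast and skeletal muscle panels have replicate 3 highest.

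Stromal genes were high in a single tumour. Of 23 tested fibroblast genes all had a positive difference (median 0.60), and 3 separated above the controls (against 7.58% of all genes). Col1a2, a chain of type I collagen, had 13.70, 13.80 and 16.39 in current RANK-Fc tumours, against 13.72 and 12.88 in control tumours (1.17 ± 0.67). Replicates 1 and 2 were level with control replicate 1 there. Current RANK-Fc replicate 3 was the highest of the 5 tumours in 21 of the 23 genes, and without it the median was 0.13. Some skeletal muscle genes were also highest in that tumour. Tnnc2, a troponin of fast skeletal muscle, had 6.59, 6.55 and 10.13 in current RANK-Fc tumours and 6.58 and 6.62 in control tumours. Replicate 3 was the highest of the 5 tumours in 5 of the 8 muscle genes tested. Of the 8, 6 had a positive difference and 2 a negative one. In 1 of them the current RANK-Fc tumours all lay below both controls (12.5%, against 5.62% of all genes), and in 0 all above. Over the 8 muscle genes tested of 18 listed, the tumour means were 7.54, 7.48 and 8.80 in current RANK-Fc tumours, against 7.49 and 7.60 in control tumours, and 10 of the list were too dim in every group. Erythroid genes were highest in the same tumour, at a mean of 12.80, against 10.35 and 11.20 in the other current RANK-Fc tumours and 10.13 and 11.91 in control tumours. What this tumour's stroma or muscle contributed to its casein and fatty acid values was not tested. Without it, the milk protein median was 0.16 and the cholesterol synthesis median 0.33.

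Of 15 tested matrix proteases and their inhibitors, 14 had a positive difference (median 0.40) and 8 separated (53.3%, against 7.58% of all genes), with 0 below. Timp1, an inhibitor of metalloproteases, had 10.56, 10.26 and 11.43 in current RANK-Fc tumours, against 9.85 and 9.63 in control tumours (0.94 ± 0.31, 1.92-fold). Adamts1, a protease that cleaves proteoglycans, had 9.35, 8.85 and 10.03 in current RANK-Fc tumours, against 8.66 and 8.39 in control tumours (0.79 ± 0.25). Replicate 3 was the highest in both, and replicates 1 and 2 still lay above the controls. Without replicate 3 the median of the list was 0.14. In the comparison after earlier treatment 1 of the 15 was higher, with a median of -0.50, so the direction was not shared.

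Of basal epithelial genes, 14 of 17 had a positive difference (median 0.43), with 4 separated above (23.5%, against 7.58% of all genes) and 1 below (5.88%, against 5.62%). The median was 0.17 without current RANK-Fc replicate 3 and 0.20 without control replicate 2. Lamb3, a chain of laminin-332, the anchor of epithelia to their basement membrane, had 11.08, 10.55 and 12.22 in current RANK-Fc tumours, against 10.16 and 10.05 in control tumours (1.06 ± 0.34, 2.09-fold). Its partner integrin Itgb4 had 11.52, 10.82 and 11.46 in current RANK-Fc tumours, against 10.82 and 10.48 in control tumours (0.56 ± 0.17), with replicate 2 level with control replicate 1. The keratin Krt19 separated, at 12.32, 11.16 and 12.77 in current RANK-Fc tumours, against 11.03 and 10.42 in control tumours (1.24 ± 0.48), and it was the only 1 of the 10 luminal genes tested that did. Of the 10, 5 were higher and 5 lower, and the median was -0.01. Sox9, a factor of progenitor cells, lay below both controls in all 3 current RANK-Fc tumours (-0.23 ± 0.22).

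Over all genes, the smallest p on the higher side belonged to Armcx3, an X-linked gene whose product sits on mitochondria and takes part in their transport in neurons. It had 9.58, 9.68 and 10.16 in current RANK-Fc tumours, against 8.76 and 8.62 in control tumours (1.08 ± 0.17, 2.12-fold, adjusted p = 0.272). The passage 2 controls were the lowest of all 16 tumours for this gene: passage 1 RANK-Fc tumours had 9.93, 10.09 and 10.28, passage 1 control tumours 10.12 and 10.33, tumours with RANK-Fc in both passages 9.47, 9.90 and 9.70, and tumours with earlier RANK-Fc alone 9.84, 9.62 and 9.62. Its other probe gave 0.29. The related Armcx1 (0.68 ± 0.20) and Armcx2 (0.85 ± 0.39) separated as well, while Armcx5 and Armc10 differed by -0.16 and -0.15. Lcn10, a lipocalin known from the mouse epididymis, had 7.41, 7.99 and 7.88 in current RANK-Fc tumours, against 6.48 and 6.58 in control tumours (adjusted p = 0.272). It was well above background in 3 of 3 current RANK-Fc tumours and in 0 of 2 controls, which makes it at least 2.35-fold higher. The fold compares the treated mean with, per control, the higher of the gene's own signal and the lowest signal well above background. Lcn2, the abundant lipocalin of mammary tumours, differed by 0.01 ± 0.16.

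Others on the higher side were Tesc, a calcium-binding regulator of sodium-proton exchange, at 10.23, 9.13 and 9.72 in current RANK-Fc tumours, against 8.69 and 8.85 in control tumours (0.82 ± 0.22). Upp1, uridine phosphorylase, had 7.85, 8.59 and 8.70 in current RANK-Fc tumours, against 7.68 and 7.58 in control tumours (0.80 ± 0.21). Neither overlapped, though a current RANK-Fc tumour came close to the controls in each, replicate 2 for Tesc and replicate 1 for Upp1. The tyrosine kinase gene Frk differed by 0.53 ± 0.14, the beta-tubulin gene Tubb6 by 0.91 ± 0.24, Exoc3l4 by 0.55 ± 0.14 and the zinc finger gene Ikzf5 by 0.38 ± 0.10, with its other probe at 0.15.

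**Figure D5:**
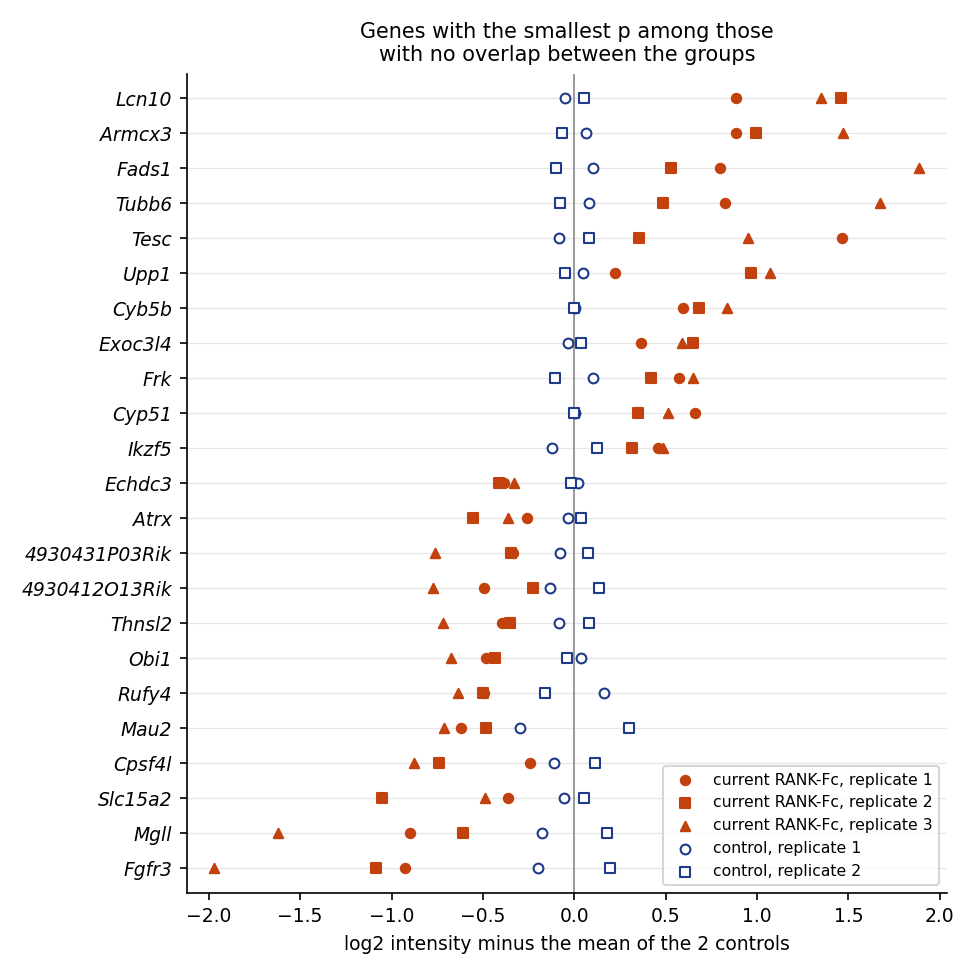
Log2 intensity of 23 genes in each passage 2 tumour, minus the mean of the 2 control tumours (x axis): 11 of the 12 higher genes and the 12 lower genes with the smallest p among those whose groups did not overlap. Filled orange symbols are current RANK-Fc tumours and open blue symbols control tumours; Fgfr3 and Mgll at the foot reach furthest left in replicate 3.

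On the lower side, Mgll, the lipase that cleaves monoacylglycerol and the endocannabinoid 2-AG, had 11.95, 12.24 and 11.23 in current RANK-Fc tumours, against 12.67 and 13.03 in control tumours (-0.99 ± 0.20, adjusted p = 0.839). All its 3 probes were lower, by -0.99 to -0.69. Fgfr3, a fibroblast growth factor receptor, had 9.42, 9.26 and 8.37 in current RANK-Fc tumours, against 10.14 and 10.54 in control tumours (-1.31 ± 0.31, its other probe -0.37). The 2 passage 2 controls were higher than the 14 other tumours in Fgfr3, of which the highest was an earlier RANK-Fc tumour at 9.54. Slc15a2, a peptide transporter, had 10.20, 9.51 and 10.08 in current RANK-Fc tumours, against 10.51 and 10.62 in control tumours (-0.69 ± 0.17). It was also lower in the other comparisons, by -0.32 in passage 1 and -0.59 after earlier treatment.

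Obi1, a ubiquitin ligase gene of replication origin firing, had 6.71, 6.76 and 6.52 in current RANK-Fc tumours, against 7.23 and 7.15 in control tumours (-0.51 ± 0.09, adjusted p = 0.543). Atrx, a chromatin remodeller, had 9.08, 8.78 and 8.97 in current RANK-Fc tumours, against 9.30 and 9.37 in control tumours (-0.41 ± 0.09), but of its 3 probes the highest stood at 0.03. Galnt9, an enzyme that starts mucin-type sugar chains, had 9.08, 9.47 and 7.55 in current RANK-Fc tumours, against 10.26 and 10.14 in control tumours (-1.40 ± 0.50). Wif1, a secreted Wnt inhibitor, had 10.78, 10.11 and 8.75 in current RANK-Fc tumours, against 10.84 and 11.02 in control tumours (-1.08 ± 0.50). Replicate 3 was the lowest in both, and for Wif1 replicate 1 nearly met the controls. The remaining genes of small p on this side were Mau2 (-0.63), Cpsf4l (-0.65), Thnsl2 (-0.47), Echdc3 (-0.40) and the uncharacterised 4930431P03Rik (-0.47) and 4930412O13Rik (-0.47, its other probe -0.03). By size, Scgb1c1 (-1.17) and Lhx5 (-1.14) followed Galnt9 and Fgfr3 among the lower genes without overlap, and Fam170b (1.73) stood on the higher side. Rufy4 was not well above background in any current RANK-Fc tumour and was at least 1.46-fold lower.

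The AP-2 factors, which in the mammary gland and its tumours act in luminal cells, had negative differences in all 3 tested genes. Tfap2a had 11.89, 12.04 and 11.99 in current RANK-Fc tumours, against 12.44 and 12.39 in control tumours (-0.43 ± 0.18, its other probe -0.13), with no overlap. Tfap2b had 9.86, 8.16 and 6.48 in current RANK-Fc tumours, against 10.43 and 9.85 in control tumours (-1.94 ± 0.63). Its replicate 1 met the lower control, and replicate 3 was not well above background. Tfap2c differed by -0.15 ± 0.20.

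Proliferation genes were divided between the directions. Of 28 tested proliferation genes, 14 were higher (50%, against 55.3% of all genes, median 0.01). In 1 the groups separated above (3.57%, against 7.58% of all genes) and in 1 below (3.57%, against 5.62%). In the passage 1 comparison 23 of the 28 were higher (median 0.11), and 14 separated above, against 7.62% of all genes. After earlier treatment 13 were higher (median -0.01) and 0 separated. Mki67, which marks cycling cells, had 12.75, 12.31 and 12.26 in current RANK-Fc tumours and 12.25 and 12.64 in control tumours (-0.04 ± 0.15). Of 20 genes of cell death, 12 were higher (60%, against 55.3% of all genes, median 0.06). Adipocyte genes varied from tumour to tumour within both groups: Cfd, adipsin, had 11.72, 12.05 and 8.73 in current RANK-Fc tumours and 13.01 and 9.18 in control tumours (0.24 ± 1.03).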

How the data were processed

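RNA from fragments of 16 tumours was labelled with Cy5 or Cy3 and hybridised in pairs to 8 two-colour Agilent mouse arrays on 1 slide. Per the file headers, the scanner images were quantified in Agilent Feature Extraction, version 10.7.3.1. The deposited median signal and background intensity of each spot were used as given. The deposited log10 ratio of red over green was used to check the direction of the dyes, and the deposited quality marks, values of other kinds, to leave out 239 to 337 spots per array. A deposited table of normalised values was not used, since its 8 columns match no label.

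Intensities were background-corrected (normexp, offset 50), normalised by loess within and Aquantile between arrays, and fitted per channel with limma 3.58.1 in R 4.3.3 over all 16 tumours, with 6 group means, a dye term and the array as an intraspot correlation (0.222, corrected from an estimate of 0.415). All levels are normalised log2 intensities computed from the deposited values, and differences are on that scale; levels of different genes are not compared. Of 55681 probes, 28026 carry a gene symbol; the brightest passing probe stood for each of 14131 genes. A probe passed if all tumours of 1 or more groups had it well above background; 47.5% to 56.5% of spots were well above background and 0 were saturated. P-values were adjusted by Benjamini-Hochberg over all genes. The number of arrays limits the precision. Each tumour has its own animal label, but a shared donor tumour is not recorded, so p-values measure the spread between these samples. The scripts were tested on simulated data.

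The genes and lists were chosen with earlier results of these data known. Genes were named by p (12 in each direction) and size (6 in each direction) among those without overlap between the groups, by p within each list (up to 5), and as members of the RANK, AP-2 and other lists. A gene was said to separate where all current RANK-Fc tumours lay beyond both controls, on levels not adjusted for dye unless stated. Alternatives covered background, normalisation, filter, probe, dye, array, samples, variance prior and each tumour left out. Some genes are not reported here, although the counts and medians of their lists include them.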

Additional observations from a re-analysis of the deposited data

How the results depend on the processing

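The count of genes past an adjusted p of 0.05 (limma) was 0 under the other 12 settings tried and 0 to 4 when a tumour was left out. It was 2 without current RANK-Fc replicate 1 (Pilra and Sgk2) and 4 without control replicate 1 (Ebna1bp2, Fundc2, Gm10731 and Wfs1), fits in which the lone remaining control, where there is 1, is assumed to vary like the other groups. Wfs1 differed by 2.001 without control replicate 1 and by -0.049 without control replicate 2. No paired analysis was possible because the labels give no replicate numbers shared by groups, and the numbers used here follow accession order. The dye-adjusted counts of separated genes, the list values without each tumour and the array with both groups were chosen after seeing the data. On that array, with dye adjustment, 28 of 34 cholesterol synthesis genes were higher in current RANK-Fc replicate 2 than in control replicate 2 (median 0.256) and 29 of 34 milk protein genes (median 0.313), against 54.1% of all genes. Other lists were as high there: 42 of 42 interferon response genes, 27 of 27 of the interferon-gamma list, 26 of 29 NF-kB targets and 18 of 20 of the unfolded protein response. Fatty acid synthesis had 18 of 28 higher and proliferation 5 of 28. Control replicate 2 had the lowest mean of the 5 tumours in 18 of 36 lists. The number of genes separated above the controls with 1 tumour left out was 8 to 22 for milk proteins (highest without current RANK-Fc replicate 1), 7 to 15 for fatty acid synthesis (highest without control replicate 1), 7 to 12 for the unfolded protein response (highest without current RANK-Fc replicate 1), 8 to 13 for matrix proteases (highest without control replicate 1), 3 to 17 for fibroblast genes (highest without control replicate 1), 4 to 16 for NF-kB targets (highest without current RANK-Fc replicate 1), 4 to 11 for basal epithelium (highest without control replicate 1) and 3 to 9 for RANK signalling (highest without control replicate 1). For the interferon response the number was 0 to 35 of 42, and for the interferon-gamma list 0 to 13 of 27. Both were highest without control replicate 1. The shares of all genes in such fits are those given with the gene counts in the results. Genes also separated below. Without current RANK-Fc replicate 2 these were 7 of 28 in fatty acid synthesis (8 above), 4 of 29 NF-kB targets (5 above) and 3 of 34 milk proteins (9 above). In the same fit they were 2 of 19 in RANK signalling (3 above) and 1 of 17 in basal epithelium (10 above).

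Of the values of named genes under these settings, 1823 kept their direction and 71 changed sign; the cause was not tested. Under the processed signals the difference was -0.07 for Abca1, -0.015 for Abcg1, -0.038 for Atf6, -0.17 for Lcn2 and -0.031 for Xbp1. Under quantile normalisation of all channels the difference was -0.021 for Abca1, -0.027 for Atf6, -0.141 for Lcn2 and -0.045 for Xbp1. Without a filter on dim probes the difference was -0.012 for Abca1. Without a dye term the difference was -0.061 for Abca1, -0.015 for Abcg1, -0.013 for Cd3g, -0.052 for Cfd, -0.094 for Lcn2 and -0.005 for Xbp1. Under the uncorrected intraspot correlation the difference was -0.041 for Abca1 and 0.007 for Ern1. With log ratios alone the difference was -0.152 for Abca1, 0.184 for Ern1, -0.283 for Scd1 and -0.141 for Tnnc2. Without background subtraction the difference was -0.017 for Atf6. Under median centring the difference was -0.044 for Cd3g, -0.04 for Krt18, -0.046 for Lcn2, 0.001 for Mki67, 0.011 for Tnfrsf11a and -0.084 for Xbp1. With the 5 tumours alone the difference was -0.004 for Cd3g and -0.023 for Xbp1. With probes well above background in all channels the difference was -0.001 for Xbp1. With the mean of passing probes the difference was -0.001 for Xbp1. Leaving out each tumour in turn gave ranges across 0 of -0.148 to 0.118 for Abca1, -0.228 to 0.304 for Abcg1, -0.087 to 0.136 for Atf6, -0.35 to 0.422 for Cd3g, -1.347 to 1.448 for Cfd, -0.115 to 0.257 for Eif2ak3, -0.28 to 0.144 for Ern1, -0.093 to 0.211 for Fasn, -0.594 to 0.705 for Ifng, -0.124 to 0.193 for Insig2, -0.245 to 0.237 for Krt18, -0.138 to 0.207 for Lcn2, -0.161 to 0.076 for Mki67, -0.321 to 0.956 for Scd1, -0.627 to 0.284 for Srebf1, -0.294 to 0.042 for Tfap2c, -0.247 to 0.132 for Tnfrsf11a, -0.143 to 0.532 for Tnfrsf11b, -0.15 to 1.88 for Tnnc2, -0.049 to 2.001 for Wfs1 and -0.106 to 0.08 for Xbp1.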

Other observations

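Across the passage 2 comparison and the other 2 comparisons, which use other tumours, 16 of 14131 genes had every RANK-Fc tumour above its counterparts in all 3, and 10 had every one below. Singly, 7.58% of genes separated above and 5.62% below in passage 2, 7.62% and 9.34% in passage 1, and 4.36% and 5.3% after earlier treatment. The genes separated in all 3 were chosen after their values were seen, and some tumours shared an array. Pip, a secreted protein of apocrine glands, differed by 0.61 in passage 2, 2.54 in passage 1 and 1.73 after earlier treatment. Over the settings and left-out tumours its passage 2 difference ran from 0.142 to 1.314. Asns, asparagine synthetase, a target of the amino acid response factor ATF4, differed by 0.35 (0.114 to 0.588 over the same settings), 0.57 and 0.83 in the same order. Tfrc, the transferrin receptor that brings iron into cells, differed by 0.64, 0.36 and 0.37, and Wfs1, a membrane protein of the endoplasmic reticulum, by 1.11, 0.26 and 0.43. Without control replicate 2 the passage 2 difference of Wfs1 was -0.049. Cyp51 and Tm7sf2, both enzymes of cholesterol synthesis, were in the set, and so were Sec11c and Serp1, which act in the making of secreted proteins, and Gmppb, which makes a sugar donor for glycosylation. Over the settings and left-out tumours the passage 2 difference was as low as 0.006 for Sec11c and 0.048 for Serp1. The remaining higher genes, with their passage 2 differences, were Ormdl3 (0.34), C2cd2l (0.27), Wdr12 (0.21), Aen (0.19), Ubac1 (0.18), Tmem144 (0.18) and Osgin1 (0.17). Among the 10 lower genes, Slc15a2 differed by -0.69, -0.32 and -0.59 and Srgap3 by -0.48, -0.22 and -0.46.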
